A study of Homo sapiens with 4 samples.

Results

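The CDK inhibitor genes are the genes whose proteins bind cyclin-dependent kinases (CDKs) or their cyclin complexes and hold them inactive. All 7 human members of the CIP/KIP and INK4 families were taken by symbol, CDKN1A, CDKN1B, CDKN1C, CDKN2A, CDKN2B, CDKN2C and CDKN2D, out of 58735 genes in the count table, and each of the 7 has a row. RNA was sequenced from MDA-MB-231 and SUM159, both established human triple-negative breast cancer (TNBC) cell lines. Each line was treated for 72 h with 1 μM mebendazole (MBZ), an anthelmintic benzimidazole that binds tubulin, or with 0 μM MBZ in dimethyl sulfoxide (DMSO) as vehicle control. There was 1 library for each of the 4 conditions, so no spread between cultures can be given, and the total counts ranged from 17143139 to 24897586 per library.

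CIP/KIP proteins (p21 from CDKN1A, p27 from CDKN1B, p57 from CDKN1C) bind complexes of several CDKs with cyclins, and chiefly restrain those of CDK2. INK4 proteins (p15 from CDKN2B, p16 from CDKN2A, p18 from CDKN2C, p19 from CDKN2D) bind CDK4 and CDK6 and keep them from cyclin D. With CDK4, CDK6 and CDK2 held back, the retinoblastoma protein stays unphosphorylated and E2F target genes stay off, which holds cells before S phase. CDKN2A also encodes p14ARF from another first exon, in another reading frame. Levels of p21 and p27 are controlled by protein degradation as well, and protein was not measured in these libraries.

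The lines fitted the marker pattern of mesenchymal TNBC in part. VIM, KRT8 and KRT18 were detected in all 4 libraries, PGR had 0 counts in each, and ESR1 had 1, 0, 2 and 18 counts in MDA-MB-231 DMSO, MDA-MB-231 MBZ, SUM159 DMSO and SUM159 MBZ cells. ERBB2 was not at 0, with 1996, 1353, 1826 and 1216 counts in that order. Markers of leukocytes, endothelium and fibroblasts (PTPRC, PECAM1 and COL1A1) were at 0 in none of the libraries, and their summed level was 27.3, 24.6, 131 and 70.1 CPM, the count scaled to the normalised size of its library. Their part in the results was not tested. In a population of cells, fewer cells that express a gene and less RNA of it per cell cannot be told apart.

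The sequences that lie just before the start sites of the 4 members that differed at least 1.5-fold in a line are shown here, since these genes carry most of what follows. RefSeq (GRCh38.p14) start-site windows were found for 6 of the 7 members, and CDKN1C has none in the table used. Each line gives the 250 bases before the start on the strand of the gene, 5′ to 3′. Capitals mark the GC box, the letters GGGCGG or their reverse complement, which is bound by Sp1-type zinc finger factors, and neighbouring matches can overlap.
CDKN1A (chr6:36678464-36678713, plus strand): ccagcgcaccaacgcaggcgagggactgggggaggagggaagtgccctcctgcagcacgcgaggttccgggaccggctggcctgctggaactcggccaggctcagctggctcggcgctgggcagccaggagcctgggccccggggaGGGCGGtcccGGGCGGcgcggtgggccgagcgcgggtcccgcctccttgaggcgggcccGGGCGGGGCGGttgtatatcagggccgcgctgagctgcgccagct
CDKN2C (chr1:50968456-50968705, plus strand): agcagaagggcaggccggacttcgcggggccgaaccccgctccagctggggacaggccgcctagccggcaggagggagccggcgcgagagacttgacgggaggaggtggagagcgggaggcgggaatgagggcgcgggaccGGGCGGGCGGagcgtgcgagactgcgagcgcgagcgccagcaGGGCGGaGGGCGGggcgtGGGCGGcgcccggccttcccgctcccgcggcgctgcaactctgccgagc
CDKN2B (chr9:22009306-22009555, minus strand): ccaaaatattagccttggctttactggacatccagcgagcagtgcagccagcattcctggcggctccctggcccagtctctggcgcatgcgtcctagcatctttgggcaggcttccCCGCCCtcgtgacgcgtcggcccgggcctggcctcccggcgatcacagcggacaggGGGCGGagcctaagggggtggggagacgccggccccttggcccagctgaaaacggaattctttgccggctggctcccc
CDKN2D (chr19:10568980-10569229, minus strand): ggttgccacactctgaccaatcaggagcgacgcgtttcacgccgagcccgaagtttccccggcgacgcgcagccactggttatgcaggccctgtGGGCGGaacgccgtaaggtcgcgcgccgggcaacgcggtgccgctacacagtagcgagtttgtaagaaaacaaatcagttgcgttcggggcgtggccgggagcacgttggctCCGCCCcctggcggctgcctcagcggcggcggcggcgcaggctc

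These stretches held 4 GC boxes for CDKN1A, 5 for CDKN2C, 2 for CDKN2B and 2 for CDKN2D. CDKN2C has 2 further start sites in the table, with 0 and 1 GC boxes before them and 45.6% and 48.8% G and C. At least 1 GC box lay before 42.6% of all 35116 start sites of the table, so the letters alone do not set these genes apart. The stretches printed, for CDKN2C the one richest in G and C of its start sites, were 76.4%, 77.2%, 66.4% and 67.6% G and C for CDKN1A, CDKN2C, CDKN2B and CDKN2D, against a median of 58.0% over all start sites. Letters of E2F sites (TTTGGCGC, in 0.652% of all windows of 250 bases before to 50 after a start, and TTTCCCGC, in 1.63%), of the cell cycle homology region (TTTGAA, in 15.2%) and of the TATA box (TATAAA, in 11.5%) were searched on both strands of those windows. None of the 4 was in a window of a member. These matches describe the sequence and were not tied to any change in level.

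The 7 genes spanned a wide range of levels in each library. Levels are given as CPM after normalization by the trimmed mean of M values (TMM) within each line, and compared between genes as CPM per kilobase of exons. In MDA-MB-231 DMSO cells CDKN2C came first per kilobase, at 48.8 CPM per kb. CDKN1A followed at 41.0 and CDKN2D at 40.9 CPM per kb. In MDA-MB-231 MBZ cells CDKN1A came first at 38.0 CPM per kb, before CDKN2D at 27.6 and CDKN2C at 18.8. SUM159 DMSO cells had CDKN1A at 20.97, CDKN2C at 17.4, CDKN1B at 4.01 and CDKN2D at 3.35 CPM per kb. In SUM159 MBZ cells CDKN1A came first at 44.1, before CDKN2D at 16.3 and CDKN2C at 15.7 CPM per kb, the order seen in MDA-MB-231 MBZ cells. The order depends on which transcripts are taken for the length. With the length of 1 canonical transcript per gene, an alternative added after seeing the data, 11 of the 24 positions held by genes with counts differed, although CDKN2C stayed first in MDA-MB-231 DMSO cells and CDKN1A in SUM159 MBZ cells. By that length CDKN2C came first in MDA-MB-231 MBZ and SUM159 DMSO cells. CDKN2D went from position 2 to position 4 in both MBZ libraries, so the order they shared did not hold. CDKN1B stood at 8.38 or 32.2 CPM per kb in MDA-MB-231 DMSO cells by these lengths, and CDKN2C at 48.8 or 148 CPM per kb. CDKN2A and CDKN2B were the lowest of the 7 in all 4 libraries under both lengths.

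**Figure D1:**
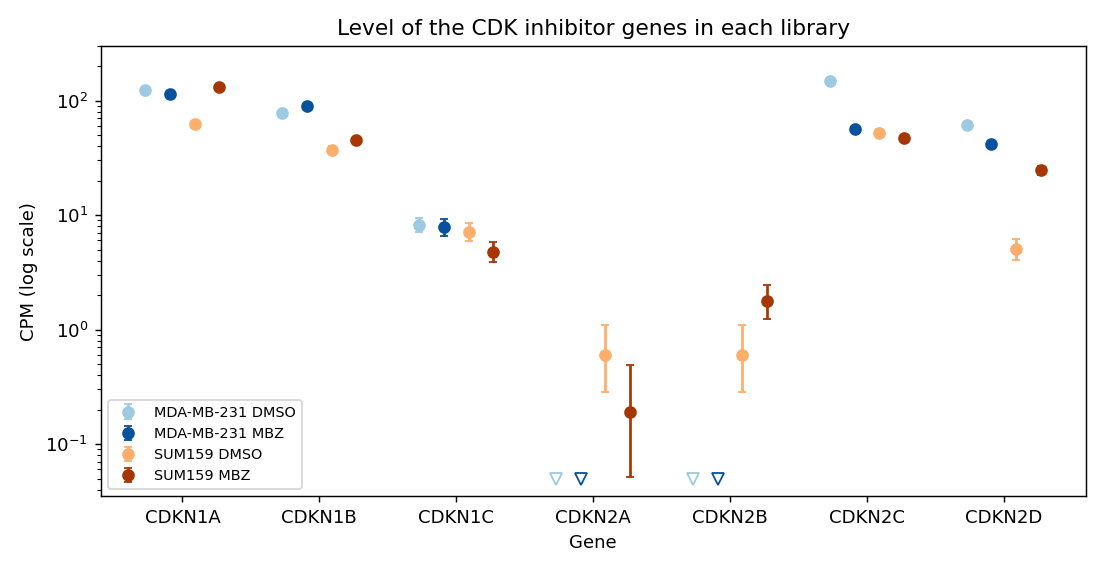
Level of each of the 7 genes in the 4 libraries, as CPM on a log axis with 95% exact Poisson intervals that cover counting error only. Open triangles at the lower edge are counts of 0, which are seen for CDKN2A and CDKN2B in both MDA-MB-231 libraries and nowhere else.

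CDKN1A encodes p21, an inhibitor of CDK2 complexes that is known to be raised by DNA damage. The gene (ENSG00000124762) lies at chr6:36676460-36687337 on the plus strand of GRCh38. It had 2791 counts in MDA-MB-231 DMSO, 2142 in MDA-MB-231 MBZ, 1059 in SUM159 DMSO and 2771 in SUM159 MBZ cells, or 123, 114, 62.8 and 132 CPM. The SUM159 DMSO library stood lowest and the other libraries lay close together. In SUM159 cells the level was 2.10-fold higher after MBZ, a log2 fold change of 1.07 with a 95% interval from 0.97 to 1.17. In MDA-MB-231 cells the log2 fold change was -0.11 (-0.19 to -0.03), and with scaling by total counts it turned to 0.16. Each interval on a fold change covers counting error only, and copies made by PCR, which carry no molecular identifiers here, are not separate molecules. CDKN1A shares 146 exonic bases with the antisense gene DINOL, which had 0, 0, 0 and 1 counts, and the strand setting of the counting is not given in the sources used here.

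CDKN1B encodes p27, which binds CDK2 complexes in resting cells and is cleared by the SCF-SKP2 ubiquitin ligase as cells enter S phase. The gene (ENSG00000111276) lies at chr12:12685498-12722369 on the plus strand. It had 1762, 1692, 626 and 947 counts in MDA-MB-231 DMSO, MDA-MB-231 MBZ, SUM159 DMSO and SUM159 MBZ cells, or 77.6, 90.0, 37.1 and 45.1 CPM. Both MDA-MB-231 libraries lay above both SUM159 libraries. The MBZ library was the higher of the pair in each line, by a log2 fold change of 0.21 (0.12 to 0.31) in MDA-MB-231 and 0.28 (0.13 to 0.43) in SUM159 cells, neither at 1.5-fold. CDKN1B overlaps GPR19 without sharing exonic bases, and GPR19 had 32, 28, 1 and 11 counts.

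CDKN1C encodes p57, the member expressed from the maternal copy in most tissues, and lies in the imprinted cluster on the short arm of chromosome 11. The gene (ENSG00000129757) lies at chr11:2883213-2885775 on the minus strand. It had 187, 147, 120 and 100 counts in the same order, or 8.24, 7.82, 7.12 and 4.77 CPM. The SUM159 MBZ library was the lowest and the other 3 were close to each other. For SUM159 the log2 fold change was -0.58 (-0.98 to -0.18), which is 1.49-fold lower and just short of 1.5-fold. In MDA-MB-231 cells it was -0.07 (-0.40 to 0.24), an interval that holds 0, and 0.19 with scaling by total counts.

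CDKN2C encodes p18, an inhibitor of CDK4 and CDK6. The gene (ENSG00000123080) lies at chr1:50960745-50974634 on the plus strand. It had 3345 counts in MDA-MB-231 DMSO, 1069 in MDA-MB-231 MBZ, 884 in SUM159 DMSO and 996 in SUM159 MBZ cells, or 147, 56.9, 52.5 and 47.5 CPM. The MDA-MB-231 DMSO library stood apart above the other libraries. In MDA-MB-231 cells the level was 2.59-fold lower after MBZ, a log2 fold change of -1.37 (-1.47 to -1.27). That placed CDKN2C at position 303 from the lowest of 15142 genes compared in this line. In SUM159 cells the log2 fold change was -0.14 (-0.28 to -0.01), and with scaling by total counts it turned to 0.16. An antisense gene not in the count table, ENSG00000290102, shares 617 exonic bases with CDKN2C.

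CDKN2D encodes p19, the other inhibitor of CDK4 and CDK6 with appreciable reads in both lines, and its RNA is known to vary through the cell cycle. The gene (ENSG00000129355) lies at chr19:10566460-10569059 on the minus strand. It had 1399, 780, 85 and 516 counts in MDA-MB-231 DMSO, MDA-MB-231 MBZ, SUM159 DMSO and SUM159 MBZ cells, or 61.6, 41.5, 5.04 and 24.6 CPM. Both MDA-MB-231 libraries were above both SUM159 libraries, and the SUM159 DMSO library was far below the rest. In SUM159 cells the level was 4.87-fold higher after MBZ, a log2 fold change of 2.28 (1.95 to 2.63), higher than 96.5% of the 15674 genes compared in this line. In MDA-MB-231 cells it was 1.48-fold lower, a log2 fold change of -0.57 (-0.70 to -0.44), just short of 1.5-fold. With DESeq2 size factors it was -0.62, past 1.5-fold.

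CDKN2A encodes p16 and p14ARF, which these counts per gene cannot separate. The gene (ENSG00000147889) lies at chr9:21967752-21995301 on the minus strand. It had 0 counts in both MDA-MB-231 libraries, 10 in SUM159 DMSO and 4 in SUM159 MBZ cells. A count of 0 allows up to 3 counts, or 0.132 CPM in the MDA-MB-231 DMSO and 0.160 CPM in the MDA-MB-231 MBZ library. The SUM159 values were 0.593 and 0.191 CPM, with a log2 fold change of -1.61 (-3.77 to 0.16), an interval that holds 0. The mean of 7 counts is under the minimum of 10 set for a comparison. CDKN2A shares 593 exonic bases with the antisense gene CDKN2B-AS1, which had 0, 0, 0 and 1 counts.

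CDKN2B encodes p15, an INK4 protein known to be raised by TGF-β. The gene (ENSG00000147883) lies at chr9:22002903-22009305 on the minus strand, beside CDKN2A. It had 0 counts in both MDA-MB-231 libraries, 10 in SUM159 DMSO and 37 in SUM159 MBZ cells, or 0.593 and 1.76 CPM in SUM159. After MBZ the SUM159 level was 2.95-fold higher, a log2 fold change of 1.56 whose interval from 0.53 to 2.74 is the widest of the members compared. The SUM159 MBZ library was the highest, on few counts, and the other libraries had 10 or fewer.

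**Figure D2:**
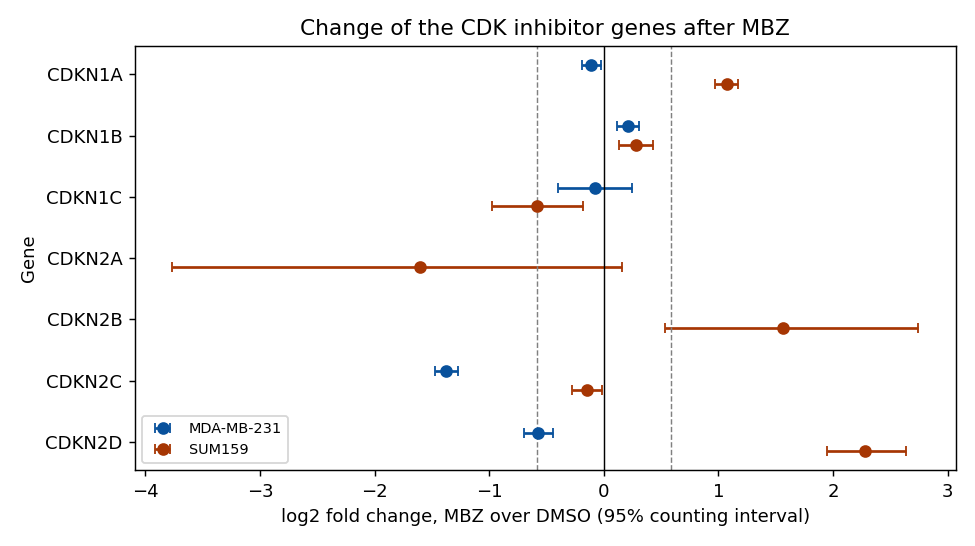
Log2 fold change of MBZ over DMSO for the 7 genes in each line, with 95% counting intervals, and dashed lines at a fold change of 1.5 in either direction. CDKN2A and CDKN2B have no MDA-MB-231 point because both libraries held 0 counts, and CDKN2D lies on opposite sides of 0 in the lines, at -0.57 and 2.28.

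Over the family, 3 members were higher after MBZ in SUM159 cells and 1 was lower in MDA-MB-231 cells. Of 5 members compared in MDA-MB-231 cells, 0 reached 1.5-fold higher and 1, CDKN2C, reached 1.5-fold lower. Of all 15142 genes compared there, 18.3% passed the 1.5-fold limit upwards and 15.8% downwards. Of 6 members compared in SUM159 cells, 3 reached 1.5-fold higher (CDKN1A, CDKN2B and CDKN2D) and 0 reached 1.5-fold lower. Among the 15674 genes compared in SUM159 cells, 21.5% passed that limit upwards and 21.7% downwards. With so few members these counts describe the genes named and not the family against the genome. The nearest values inside and outside the 1.5-fold limit were those of CDKN1A at 2.10-fold higher and of CDKN1C at 1.49-fold lower in SUM159, and of CDKN2C at 2.59-fold lower and CDKN2D at 1.48-fold lower in MDA-MB-231 cells.

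The balance of CIP/KIP and INK4 reads differed between the libraries. CIP/KIP members summed to 209, 212, 107 and 182 CPM in MDA-MB-231 DMSO, MDA-MB-231 MBZ, SUM159 DMSO and SUM159 MBZ cells. INK4 members summed to 209, 98.4, 58.7 and 74.0 CPM in that order. CIP/KIP genes took 4740 of the 9484 member reads in MDA-MB-231 DMSO cells and 68.3% of member reads in MDA-MB-231 MBZ cells, where CDKN2C held 35.3% and 18.3% of member reads. In SUM159 cells the CIP/KIP share was 64.6% with DMSO and 71.1% with MBZ, where CDKN1A held 37.9% and 51.6%. Shares of reads also depend on gene length, so they compare libraries and not genes.

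The lines differed in the direction of change for some members. The difference in log2 fold change, SUM159 minus MDA-MB-231, was 2.85 (2.5 to 3.2) for CDKN2D, 1.23 (1.06 to 1.39) for CDKN2C and 1.18 (1.05 to 1.31) for CDKN1A. It was -0.50 (-1.0 to -0.01) for CDKN1C. For CDKN1B it was 0.07 (-0.11 to 0.24), an interval that holds 0. The counting intervals lay on opposite sides of 0 in the lines for 2 of the 5 members compared in both, CDKN1A and CDKN2D. Among all 13733 genes compared in both lines, this held for 20.0%. With scaling by total counts, CDKN1A left this pattern, CDKN2D kept opposite signs with -0.30 in MDA-MB-231 cells, and CDKN2C took opposite signs at -1.11 in MDA-MB-231 and 0.16 in SUM159. As each condition has 1 library, these differences compare libraries, and they were not tested over cultures.

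**Figure D3:**
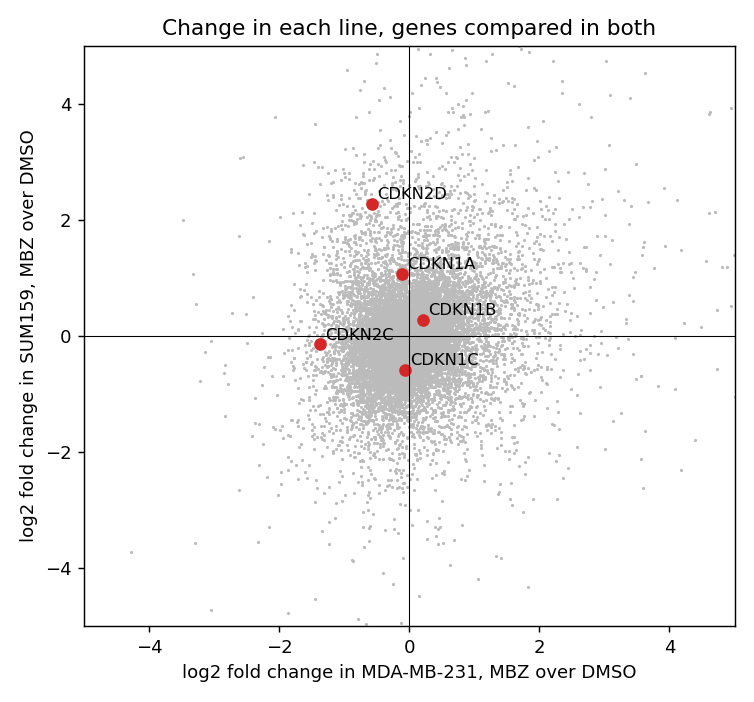
Log2 fold change of MBZ over DMSO in MDA-MB-231 (x axis) against SUM159 cells (y axis) for the 13733 genes compared in both lines (grey), with the 5 members compared in both in red. The axes stop at 5 in either direction, which leaves out 47 genes. CDKN2D stands at 2.28 on the y axis and -0.57 on the x axis, and CDKN2C at -1.37 on the x axis.

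A change alike in both lines was tested with edgeR's quasi-likelihood test on all 4 libraries, in a model with cell line and treatment. The spread comes from how unlike the lines were in their response. The fit draws the spread of each gene towards a trend over all genes, so each SE and p rests in part on other genes. Of 6 members tested, 0 were called at an adjusted p under 0.05, against 0.00621% of all 16100 genes (1 gene). An unadjusted p under 0.05 was held by 0 members, against 1150 of the 16100 genes. By DESeq2's Wald test 0 members were called as well, against 45 genes higher and 55 lower of 14763 with an adjusted p. CDKN2C had the lowest adjusted p in the edgeR fit, with a log2 fold change of -0.72 (SE 0.37, adjusted p = 0.726). CDKN2D stood at 0.85 (SE 0.68, adjusted p = 0.829) and CDKN1A at 0.52 (SE 0.37, adjusted p = 0.804) in this edgeR test. A p that misses the threshold here does not show that the genes did not respond to MBZ in a line.

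The same edgeR fit tested the difference between the lines over both treatments. Of the 6 members tested, 1 was called, CDKN2B, against 21.5% of all 16100 genes (3455 genes). CDKN2B had 0 counts in both MDA-MB-231 libraries (edgeR adjusted p = 0.0183). It passed the filter on low counts only through SUM159, the line where it is higher, so this call is a description of its counts and no support for a difference. With TMM over the 4 libraries, the SUM159 level of CDKN2B was 4.68 times that of 3 counts in the MDA-MB-231 library under DMSO. Under MBZ it was 11.4 times that level. These ratios describe the same counts, leave out the counting error of the SUM159 reads, and are neither bounds nor a test. CDKN2A did not pass the filter. On the same basis its ratio was 4.68 under DMSO, and its 4 counts in SUM159 MBZ cells are too close to 3 to be read. Lower in SUM159 were CDKN1B at a log2 difference of -0.93 (SE 0.27, edgeR adjusted p = 0.0534) and CDKN2D at -2.05 (SE 0.69, edgeR adjusted p = 0.0786), neither past the threshold. By DESeq2's Wald test both passed, at an adjusted p of 0.0495 for CDKN1B and 0.0197 for CDKN2D. CDKN2C (-0.78, edgeR adjusted p = 0.184), CDKN1A (-0.28, edgeR adjusted p = 0.632) and CDKN1C (-0.36, edgeR adjusted p = 0.626) did not pass it.

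The 0 counts of CDKN2A and CDKN2B in MDA-MB-231 cells extended over a stretch of neighbouring genes on the short arm of chromosome 9. From HACD4 to ELAVL2 (chr9:20999509-23826337, 2827 kb) the table holds 64 genes, of which 23 are protein-coding. The 23 protein-coding genes had 0 counts in both MDA-MB-231 libraries, out of 42040725 counts in all, and the whole stretch had 4, all in the pseudogene CLIC4P1. In SUM159 cells the 23 genes had 437 counts, and 6 of them had at least 1. Most of the SUM159 reads were from KLHL9, a substrate adaptor of a cullin ubiquitin ligase, with 171 counts with DMSO and 183 with MBZ. ELAVL2 had 7 and 10 counts, and MTAP, the methylthioadenosine phosphorylase beside CDKN2A, had 3 and 1. The 16 interferon genes of the stretch had 0 counts in SUM159 as well, so their 0 counts in MDA-MB-231 cells say little. Just outside the stretch, on the side of HACD4, FOCAD had 68 and 64 counts in MDA-MB-231 cells and MLLT3 had 284 and 286. Genes beyond ELAVL2 were not looked at, so the end of the stretch on that side is where the search stopped. Counts of RNA alone cannot tell a stretch absent from the genome from one that is not transcribed.

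**Figure D4:**
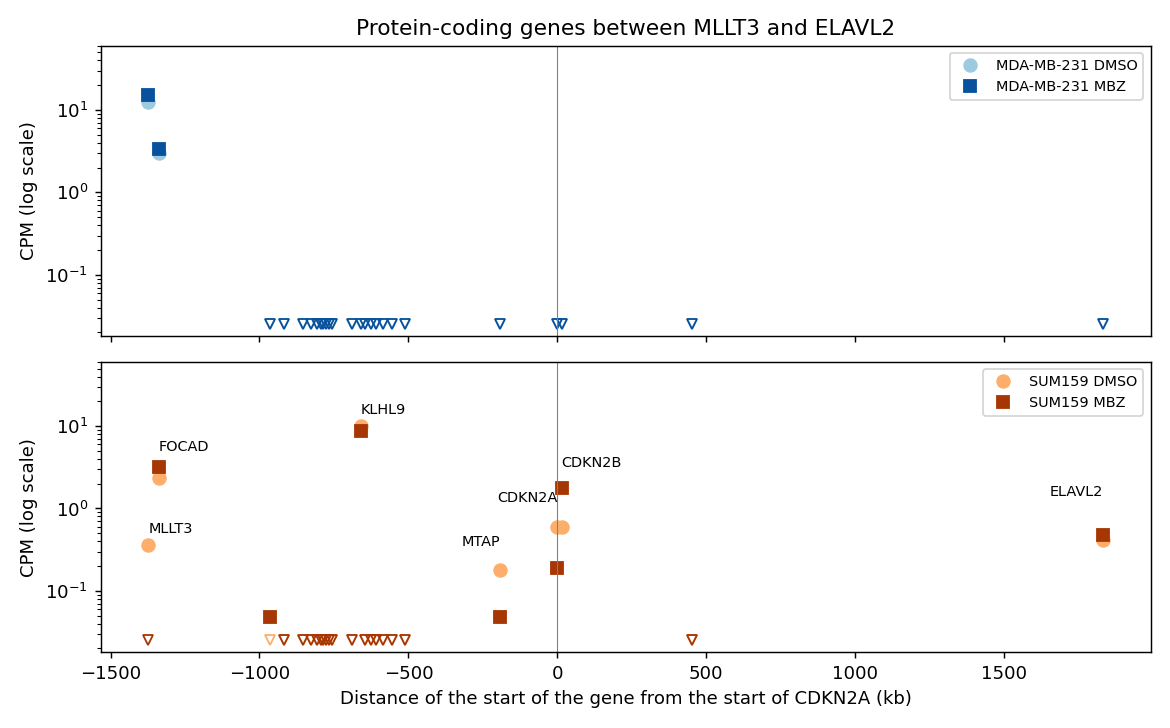
CPM on a log axis of the 25 protein-coding genes from MLLT3 to ELAVL2, by the distance of their start from that of CDKN2A in kb, for MDA-MB-231 (top) and SUM159 (bottom), with circles for DMSO and squares for MBZ. Open triangles are counts of 0. In MDA-MB-231 cells points above 0 counts are seen for MLLT3 and FOCAD, and all 23 genes from HACD4 on are triangles.

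The partners and targets of the inhibitors had medians below 0 in MDA-MB-231 cells and above 0 in SUM159 cells after MBZ. Of 11 CDKs and cyclins, 1 passed 1.5-fold upwards and 6 downwards in MDA-MB-231 cells (median log2 fold change -0.62), and 3 did so upwards and 1 downwards in SUM159 cells (median 0.34). The median over all genes compared was -0.02 in MDA-MB-231 and -0.03 in SUM159 cells. Scaling by total counts adds 0.27 and 0.30 to every log2 fold change of MDA-MB-231 and of SUM159, and brings the median over all genes to 0.25 and 0.27. CCNA2, the cyclin partner of CDK2 in S phase, stood at -0.73 in MDA-MB-231 and 2.64 in SUM159 cells on the log2 scale, the order used from here on. CDK2 itself had -0.85 and 0.38, and the INK4 targets CDK4 and CDK6 had -0.74 and -0.46, and 0.09 and -0.07. CCND2 had 3.25 and -1.32. Of 8 pocket proteins and E2F factors, 0 passed 1.5-fold upwards and 3 downwards in MDA-MB-231 (median -0.27), and in SUM159 cells 2 did so upwards and 1 downwards (median 0.06). E2F1, an activator of S phase genes, had -1.27 and 1.88, while RB1 had -0.24 and -0.08.

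Genes that act on the inhibitors are given by 2 lists. Of 12 genes in the degradation of p21 and p27, 0 passed 1.5-fold upwards and 4 downwards in MDA-MB-231 (median -0.38), and in SUM159 cells 2 did so upwards and 0 downwards (median -0.09, but 0.22 with scaling by total counts). SKP2, which recognises p27, had -1.32 and -0.07, its cofactor CKS1B had -1.02 and 1.35, and DTL, the adaptor that recognises p21, had -1.13 and 1.39. Of 9 Polycomb genes, whose complexes are known to silence the CDKN2A and CDKN2B region, 1 passed 1.5-fold in each direction in each line (medians -0.32 and 0.10), and EZH2 had -0.53 and 1.48. In the edgeR test of a shared MBZ effect, 0 genes of any of these lists were called.

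Genes of dividing cells were lower after MBZ in MDA-MB-231 and higher in SUM159 cells, the direction seen for CDKN2D. MKI67, PCNA, TOP2A and MCM2 were each at least 1.5-fold lower in MDA-MB-231 cells (4 of 4, median -1.09) and at least 1.5-fold higher in SUM159 cells (4 of 4, median 1.23). Their summed level was 1605 CPM in MDA-MB-231 DMSO, 758 in MDA-MB-231 MBZ, 220.3 in SUM159 DMSO and 623 in SUM159 MBZ cells. CDKN2D, at 61.6, 41.5, 5.04 and 24.6 CPM, had the same order of the 4 libraries, with its lowest level in SUM159 DMSO cells, and the part of cell division in the changes of the members was not tested. Of 9 neighbours of CDKN1C on chromosome 11, 6 were compared in MDA-MB-231 cells, where 1 passed 1.5-fold upwards and 2 downwards (median -0.18, but 0.08 with scaling by total counts). In SUM159 cells 7 were compared, and 3 passed it upwards and 1 downwards (median 0.12). PHLDA2 had -0.66 and 2.05, KCNQ1OT1, the noncoding RNA of the imprinted domain, had 0.74 and 1.54, and OSBPL5 had -1.18 and -1.31.

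**Figure D5:**
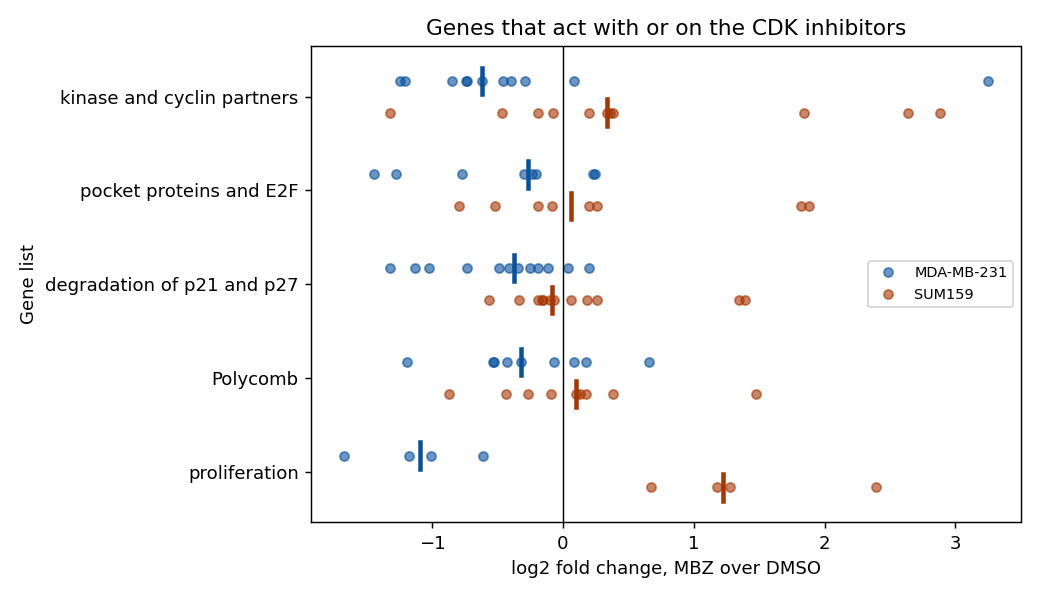
MBZ over DMSO as log2 fold change for each gene of 5 lists in MDA-MB-231 (blue) and SUM159 cells (orange), 1 point per gene, with a bar at the median of each list. The 4 proliferation genes lie below 0 in MDA-MB-231 and above 0 in SUM159 cells.

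The genes most like each member across the libraries were ranked among 11151 genes whose mean over the 4 libraries reached 100 counts, by the Euclidean distance of their log2 CPM, each centred on its own mean over the 4 libraries. For CDKN2D the nearest were CIP2A (distance 0.12), MPP2 (0.16) and KIF15 (0.21), and 3 genes lay within 0.25, against a median distance of 2.75. For CDKN2C they were PRR5L (0.19), FGFRL1 (0.19) and TLE3 (0.20), and 6 genes lay within 0.25. CDKN1A was nearest to HAT1 (0.06), CENPP (0.08) and PGP (0.10), with 36 genes within 0.25. CDKN1B was nearest to PDE12, ENSG00000284976 and SH2D4A, with 125 genes within 0.25, and CDKN1C to FBXW2, ZFAND3 and SEPTIN6, with 214. The median distance was 1.44 for CDKN2C, 1.18 for CDKN1A, 1.22 for CDKN1B and 0.93 for CDKN1C. The numbers of genes within 0.25 are therefore not comparable between members. These likenesses rest on 4 libraries.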

How the data were processed

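RNA of each line and treatment was sequenced as 150-bp paired-end libraries after mRNA enrichment. Per the labels and the methods, the authors aligned reads to GRCh38 with STAR 2.5, counted them with HTSeq 0.6.1 and deposited whole-number counts per gene. The annotation release and strand setting are not given in the sources used here. No column was left out, and 0 rows lacked a gene.

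Genes were matched by Ensembl identifier to GENCODE 44. For log2 fold changes, each line had its own TMM factors (edgeR 4.0.16, R 4.3.3), and the CPM of its 2 libraries were set against each other on the log2 scale (prior count 0.125). A gene was compared where its mean over the pair reached 10 counts, and 1.5-fold was the limit. Intervals on fold changes are 95% Clopper-Pearson intervals on reads. A fit on all 4 libraries (filterByExpr, TMM, Benjamini-Hochberg over 16100 genes, threshold 0.05) gave a common BCV of 0.323. Likeness of patterns used a prior count of 2. The alternatives were DESeq2 1.42.0, other scalings, filters, priors, folds and models. Scripts were tested on simulated data. All members were reported, and genes of the lists were named as examples. Results for 2 further gene lists are not reported here. The members and lists were chosen with earlier results of these data known.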

Additional observations from a re-analysis of the deposited data

Results flagged for a closer look

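CDKN2D had log2 fold changes in opposite directions in the lines, at -0.57 in MDA-MB-231 and 2.28 in SUM159 cells. There is 1 library per condition, so the difference was not tested over cultures. Under scaling by total counts the MDA-MB-231 value was -0.30.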

How the results depend on the processing

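Scaling by total counts turned 3 directions, those of CDKN1A in MDA-MB-231 (0.16), CDKN2C in SUM159 (0.16) and CDKN1C in MDA-MB-231 cells (0.19), the last within its counting interval, which holds 0. Of the log2 fold changes under the alternatives, CDKN1A and CDKN2C just named left out, 41 lay within the counting interval of the value reported and 5 lay outside it. The number of members at least 1.5-fold lower in MDA-MB-231 cells was 2 with DESeq2 size factors, where CDKN2D passed the limit, and in SUM159 cells it was 1 with every gene of at least 1 count, where CDKN2A entered with 10 and 4 counts. The number at least 1.5-fold higher in SUM159 cells was 2 with a minimum mean of 100 counts, which leaves out CDKN2B. The number of members called between the lines was 3 with DESeq2's Wald test, where 1790 of 17268 genes were called higher and 1661 lower in SUM159. It was 2 with RLE normalization (2069 higher and 1768 lower of 16100 genes). With every gene of at least 1 count it was 3 (2472 higher and 2343 lower of 32295 genes). Each of these numbers includes CDKN2B, which had 0 counts in both MDA-MB-231 libraries. Of the adjusted p-values of members under the alternatives, 42 stayed on the same side of 0.05 and 5 passed it, for CDKN1B (0.0353 to 0.0495) and CDKN2D (4.44e-06 and 0.0197) between the lines. The fit on all 4 libraries sets MBZ against DMSO within cell line. Beyond cell line no pairing was possible, because each group has 1 library and the replicate number the libraries share pairs nothing. Counts under about 10 limit CDKN2A and, in SUM159 DMSO cells, CDKN2B.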
